A study of Mus musculus with 4 samples.

Results

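Glycolysis and hypoxia response genes were followed on 4 arrays of a mouse reprogramming study. The list names 40 genes, and a gene was taken up where a probe set carries its symbol alone, with the brightest probe set standing for a gene that has several. Of the 40, 35 were found this way among 22180 genes of the array, and 5 (Gpi1, Aldoa, Eno1, Bnip3l and Ankrd37) had no probe set of their own. Total RNA came from reprogrammable mouse embryonic fibroblasts (MEFs) of strain Black6-129X1/SvJ, pooled from male and female animals, with 1 array in each of 4 groups. The labels name ascorbic acid, doxycycline and embryonic stem cell medium with serum for all 4 samples. Both day 6 samples are bulk cultures taken 6 days after doxycycline was added, 1 with a knockdown of Firefly, an insect luciferase that mouse cells lack, and 1 with a knockdown of Sumo2. Both other samples are stable clones of induced pluripotent stem cells (iPSC) that arose from Sumo2 knockdown fibroblasts, labelled 38 h and 10 day, times whose starting point is not given in the labels. No iPSC line from control fibroblasts was analysed here, so the step to iPSC and a history of Sumo2 knockdown cannot be told apart. Values are log2 expression.

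Glycolysis splits glucose to pyruvate, which is either reduced to lactate and exported or fed into the citrate cycle by the pyruvate dehydrogenase complex. Pluripotent stem cells are known for a high glycolytic flux, and fibroblasts pass through a rise in glycolysis while they are reprogrammed. Many of the same genes are switched on by hypoxia-inducible factor (HIF), a pair of proteins made of Hif1a or Epas1 with Arnt. When oxygen is present, prolyl hydroxylases (Egln genes) mark the HIF alpha subunit and Vhl has it degraded, so HIF is set mainly at the protein, which arrays do not read.

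HIF binds a short core, written here as ACGTG and, in a variant form, GCGTG, and searched on both strands of each promoter window, 250 bases before to 50 bases after an annotated start. The E-box CACGTG, which Myc and other factors bind, holds ACGTG on either strand, so these matches overlap with it. In RefSeq promoters (GRCm38.p6), ACGTG lay in a window of 26 of the 37 listed genes that have one (70.3%), against 21.8% of all 27025 genes in the table and 28.9% of the 9999 genes measured on these arrays that have a window. Taking only the first listed start of each gene gave 59.5%, 19.7% and 25.6%. The E-box lay in 5 of the 37 (13.5%) and in 11.9% of the measured genes. The variant GCGTG lay in 28 of the 37 (75.7%), against 35.2% of all genes and 55.1% of the measured genes. Either core lay in 94.6% of the 37, against 46.7% and 66.7%. Of listed genes with a probe set and a window, ACGTG lay in 9 of 13 not called 2-fold higher (69.2%). Among those called it lay in 15 of 20 (75%), about as often. At first listed starts the shares were 53.8% and 70%. The 13 include Car9 and Pfkfb4, too dim to be measured, and genes that rose by less than 2-fold. For GCGTG the shares were 69.2% and 85%, and for either core at first listed starts 76.9% and 95%. These are matches of letters, and no binding was measured.

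Windows of 6 genes are shown because they span the range of the comparison of iPSC with day 6 cultures, from strong rises (Bnip3, Slc16a3, Pfkp) through known HIF targets with smaller ones (Ldha, Pgk1) to Eno3, the only listed gene that was lower in both iPSC lines. They were chosen with the values known. They lie at chr7:138909457-138909756 (minus strand, Bnip3), chr11:120948817-120949116 (plus, Slc16a3), chr13:6648722-6649021 (minus, Pfkp), chr7:46845554-46845853 (plus, the first of 2 listed starts of Ldha), chrX:106186850-106187149 (plus, Pgk1) and chr11:70656926-70657225 (plus, Eno3) of GRCm38.p6. Each reads 5′ to 3′ along the gene, and capitals mark both cores on either strand.
Bnip3: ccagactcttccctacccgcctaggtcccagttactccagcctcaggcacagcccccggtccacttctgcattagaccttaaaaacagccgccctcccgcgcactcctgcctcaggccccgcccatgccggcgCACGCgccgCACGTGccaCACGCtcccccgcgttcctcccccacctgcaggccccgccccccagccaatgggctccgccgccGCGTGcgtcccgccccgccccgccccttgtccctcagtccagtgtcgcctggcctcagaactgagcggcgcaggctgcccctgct
Slc16a3: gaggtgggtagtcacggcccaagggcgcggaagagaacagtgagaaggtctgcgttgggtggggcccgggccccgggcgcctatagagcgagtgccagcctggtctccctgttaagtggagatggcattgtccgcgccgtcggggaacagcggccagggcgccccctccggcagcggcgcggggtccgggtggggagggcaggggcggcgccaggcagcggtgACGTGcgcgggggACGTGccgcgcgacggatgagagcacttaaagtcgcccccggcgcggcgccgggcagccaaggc
Pfkp: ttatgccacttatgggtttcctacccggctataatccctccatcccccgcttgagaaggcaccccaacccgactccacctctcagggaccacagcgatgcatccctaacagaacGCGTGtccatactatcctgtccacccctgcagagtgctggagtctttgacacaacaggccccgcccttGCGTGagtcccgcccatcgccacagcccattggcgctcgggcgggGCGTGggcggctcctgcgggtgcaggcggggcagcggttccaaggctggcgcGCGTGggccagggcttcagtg
Ldha: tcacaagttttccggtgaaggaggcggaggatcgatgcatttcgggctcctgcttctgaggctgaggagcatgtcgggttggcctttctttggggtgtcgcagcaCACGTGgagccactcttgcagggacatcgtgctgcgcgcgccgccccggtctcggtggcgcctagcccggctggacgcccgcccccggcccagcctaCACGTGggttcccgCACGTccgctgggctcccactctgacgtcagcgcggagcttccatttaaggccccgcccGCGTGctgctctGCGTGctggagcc
Pgk1: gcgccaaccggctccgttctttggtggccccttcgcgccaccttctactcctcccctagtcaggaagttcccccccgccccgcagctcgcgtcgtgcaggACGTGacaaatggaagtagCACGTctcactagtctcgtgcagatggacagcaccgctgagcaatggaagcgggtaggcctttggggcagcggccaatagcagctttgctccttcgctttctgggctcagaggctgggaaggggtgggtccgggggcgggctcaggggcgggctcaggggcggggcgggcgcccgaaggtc
Eno3: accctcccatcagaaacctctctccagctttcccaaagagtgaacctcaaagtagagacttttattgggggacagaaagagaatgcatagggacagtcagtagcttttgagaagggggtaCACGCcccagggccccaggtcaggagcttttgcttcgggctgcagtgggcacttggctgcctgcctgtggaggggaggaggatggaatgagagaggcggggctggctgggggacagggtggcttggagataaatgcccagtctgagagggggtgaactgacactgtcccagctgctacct
Slc16a3 holds 2 ACGTG matches 27 and 14 bases before its start, Pgk1 holds 2 farther out, and Ldha holds 5 counted on both strands, 4 of them from 2 E-boxes. Pfkp holds 0 ACGTG and 4 GCGTG, and Eno3 holds 1 GCGTG. Vegfa, the highest riser, has 0 matches in the window of its first listed start. The window of its other listed start holds GCGTG at position -218 and ACGTG at -211.

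**Figure D1:**
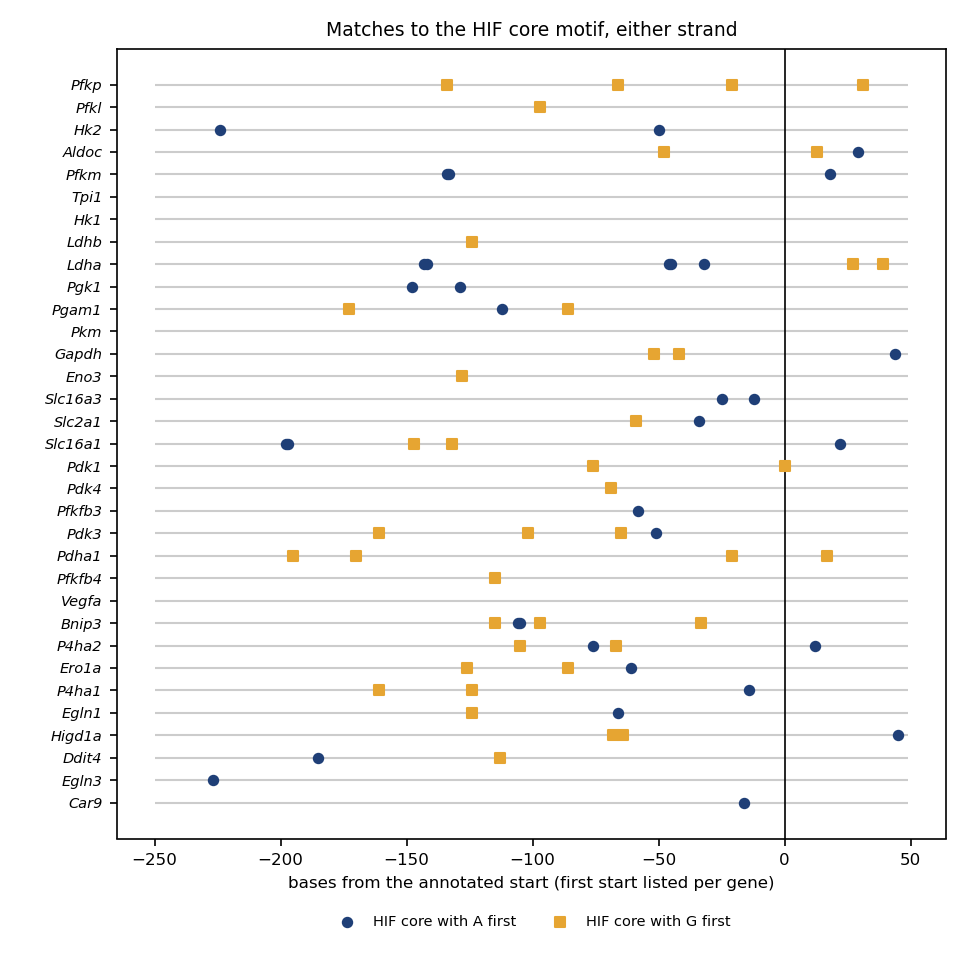
Positions of ACGTG (circles) and GCGTG (squares) on either strand, in bases from the first annotated start of each listed gene that has a probe set and a promoter window. Ndrg1 and Slc2a3 have no window in the table, and Tpi1, Hk1, Pkm and Vegfa show no match at their first listed start.

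The arrays themselves bear on all that follows. The targeted gene Sumo2 was 10.65 with Firefly knockdown and 10.56 in the other day 6 culture, 93.8% of control, hence the wording culture labelled Sumo2 knockdown: its directions depend on the label being right. A measuring floor was set at the median of all probe sets with a single symbol, 6.64 to 6.67 on the 4 arrays. Pluripotency markers averaged 6.55 and 8.12 on the day 6 arrays and 10.67 and 10.73 on the iPSC arrays, where 7 of 7 measured markers rose. Fibroblast markers averaged 9.72 and 9.18 at day 6 and 8.69 and 8.29 in iPSC, and Thy1, which marks fibroblasts, fell by 2.70 on the log2 scale (SE 0.20, limma adjusted p = 0.000375). Of the 8 fibroblast markers 3 fell (Prrx1 and Col1a2 with Thy1) and 5 did not pass, Col1a1 and Col3a1 differing by 0.07 each. Of 5 blood and macrophage markers 3 (Ptprc, Adgre1, Csf1r) lay below the floor on all 4 arrays, and Cd68 and Lyz2 rose by 1.04 and 1.24. Of 5 endothelial markers 2 (Kdr, Emcn) lay below it, Pecam1 rose by 3.38, Tek fell by 2.44 from 10.50 on both day 6 arrays, and Cdh5 did not pass (-0.74). The part of these cell type markers in the results was not tested. In such bulk samples, fewer cells of a type and less RNA per cell cannot be told apart. Probe sets for the hybridisation controls, bacterial and phage sequences meant to be equal on all arrays, were not equal: they had medians of 11.37 and 10.69 in the day 6 cultures (Firefly first) and 9.64 and 9.49 in the iPSC lines (38 h first), and 9 of 9 were lower in iPSC (by 0.73 to 1.47). Poly-A control probe sets went the other way, 12 of 12 higher by 0.02 to 2.18. The part of these controls in the results was not tested.

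The first comparison set both iPSC lines against both day 6 cultures. Genes for glucose uptake, the early steps of glycolysis, lactate export and HIF targets outside glycolysis were higher in iPSC, with group medians of 1.63 to 1.78, while those for later glycolytic steps had a median of 0.76. Of the 35 genes, 33 of them measured, 22 rose at least 2-fold by limma (adjusted p under 0.05), against 14.3% of the 12735 genes measured, and 0 fell, against 9.12%. Without the size rule 29 rose, against 29.0% of all genes, and 4 (Gapdh, Eno3, Pdk3 and Pdha1) did not pass. Both iPSC arrays lay above both day 6 arrays for 30 genes, against 46.8% of all genes, and below both for Eno3 alone, against 32.7%. The median log2 difference over all 35 was 1.32, and over all genes measured 0.15. Pfkfb4 and the carbonic anhydrase gene Car9, a standard marker of hypoxia, lay below the floor on all 4 arrays, from 6.31 to 6.61 and from 6.14 to 6.62. P4ha2 counted as measured only through the iPSC arrays. The arrays of a side differ in knockdown or line, so they are not replicates of 1 condition, and the labels do not say how separate the cultures were; the p-values measure the spread between these samples.

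**Figure D2:**
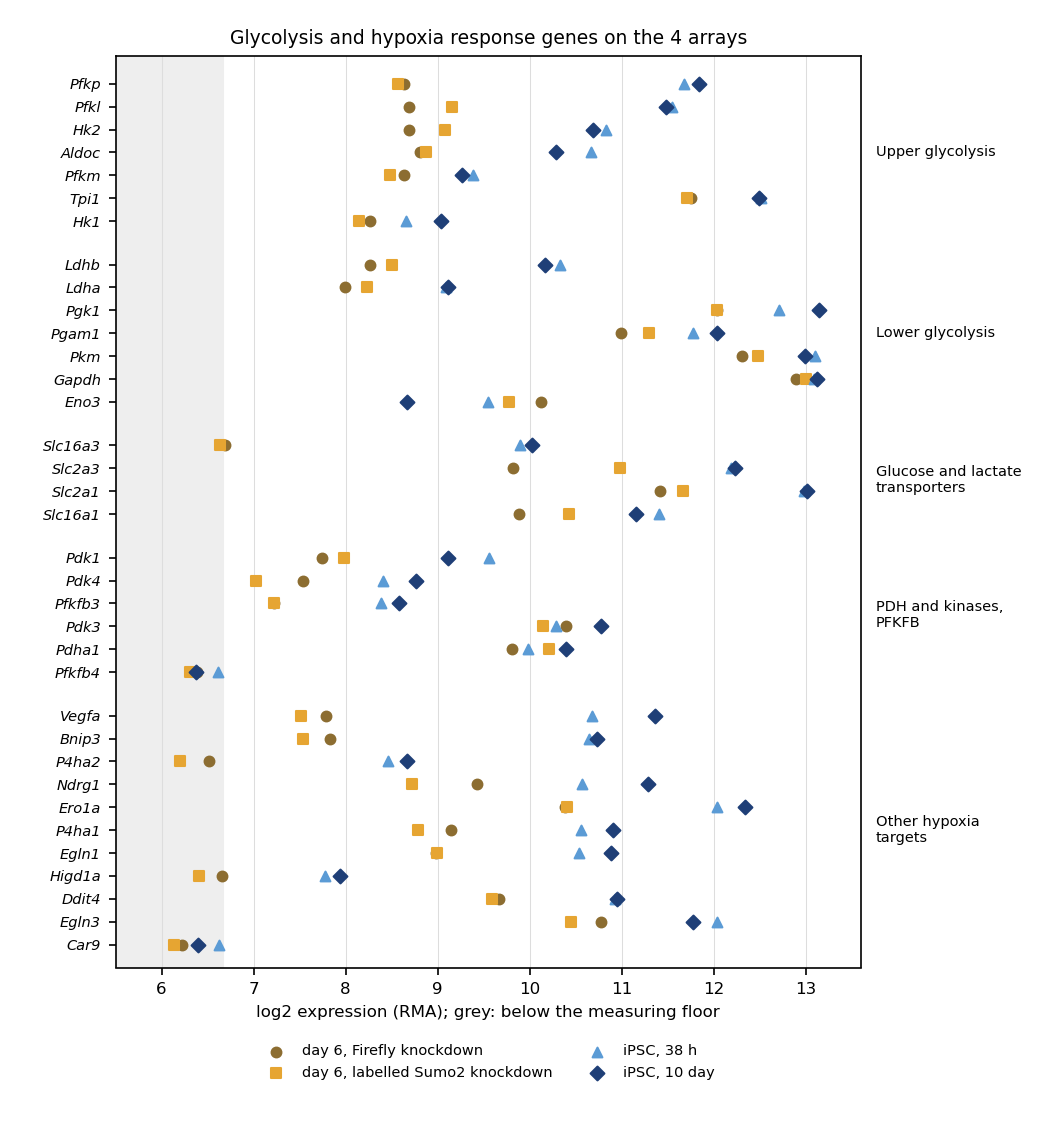
Log2 expression (x axis) of the 35 genes (y axis) on each of the 4 arrays, grouped by role and ordered within a role by the difference between iPSC and day 6. The grey band lies below the measuring floor. In 30 of the 33 measured genes both blue iPSC symbols lie to the right of both brown and orange day 6 symbols, as they do in Car9 within the grey band, and in Eno3 they lie to the left.

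All 7 upper glycolysis genes rose by the probe sets used, 4 of them at 2-fold, with a median of 1.64. Phosphofructokinase makes fructose 1,6-bisphosphate, the step that commits sugar to glycolysis, and has 3 subunit genes. Pfkp, the platelet form, was 8.63 and 8.57 on the Firefly and Sumo2 arrays and 11.68 and 11.84 on the 38 h and 10 day arrays. That is an 8.96-fold rise (log2 difference 3.16, SE 0.14, limma adjusted p = 0.000114). Pfkl, the liver form, was 8.69 and 9.16 against 11.55 and 11.48, a 6.02-fold rise (2.59, SE 0.19, limma adjusted p = 0.000369). Pfkm, the muscle form, was 8.63 and 8.48 against 9.38 and 9.27, so it rose by only 0.77 (SE 0.16, limma adjusted p = 0.0107). The day 6 and iPSC arrays did not overlap in any of the 3.

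Hexokinase traps glucose in the cell as glucose 6-phosphate. Hk2, the form that insulin and HIF induce, was 8.69 and 9.08 at day 6 and 10.83 and 10.69 in iPSC, a 3.68-fold rise (1.88, SE 0.18, limma adjusted p = 0.000821). Hk1, the widely expressed form, was 8.26 and 8.15 against 8.66 and 9.04 (0.64, SE 0.19, limma adjusted p = 0.0322). That rise of Hk1 did not pass after cyclic loess scaling (0.46, limma adjusted p = 0.0975), without the filter on dim genes (0.0507), with values below the floor set to it (0.0513), or without the Firefly (0.11), Sumo2 (0.133) or 10 day array (0.154). A probe set shared by Hk1os and Hk1 went the other way, at 7.53 and 7.40 against 7.13 and 7.28 (-0.26). Aldoc, an aldolase best known from brain, which cleaves fructose 1,6-bisphosphate, rose 3.11-fold from 8.81 and 8.87 to 10.67 and 10.29. Tpi1, which interconverts the triose phosphates made by aldolase, rose 1.71-fold from 11.75 and 11.71 to 12.51 and 12.49 (SE 0.08, limma adjusted p = 0.000894), a small step with little spread. The muscle aldolase gene Aldoa is read only by a probe set shared with Aldoart1, at 6.78 and 7.19 against 8.65 and 8.73.

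Lower glycolysis moved less, with a median of 0.76 over 7 genes and 1 rise of 2-fold. That median is the value of Pgam1, whose other probe set differed by 2.71, and Pgk1 came next above it at 0.89. Gapdh, Pgk1 and Pkm averaged 13.1, 12.93 and 13.05 in iPSC, where the highest value on any array was 13.7. Among other bright genes, Slc2a1 (12.99 in iPSC) rose by 1.45 and Tpi1 (12.5) by 0.77. The part of such bright signals in the differences was not tested. Lactate dehydrogenase interconverts pyruvate and lactate. Its heart subunit gene Ldhb was 8.27 and 8.50 at day 6 and 10.33 and 10.17 in iPSC, a 3.64-fold rise (1.86, SE 0.17, limma adjusted p = 0.000685). Its muscle subunit gene Ldha, the form that HIF induces, was 7.99 and 8.23 against 9.09 and 9.11, a 1.99-fold rise (0.99, SE 0.17, limma adjusted p = 0.00501) that passed 2-fold only when the Sumo2 array was left out (1.11). Pgk1, which makes the first ATP of the pathway, was 12.04 and 12.03 against 12.71 and 13.14 and rose 1.86-fold; without the 38 h array the rise was 1.11 and passed 2-fold. Pkm, the pyruvate kinase gene whose splice forms this value does not tell apart, went from 12.31 and 12.48 to 13.10 and 12.99, a 1.57-fold rise. 

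Pgam1, which moves the phosphate of 3-phosphoglycerate, is read by 2 probe sets that disagree in size. The brighter was 10.99 and 11.30 against 11.78 and 12.03, a 1.69-fold rise, while the other was 9.68 and 9.43 against 12.25 and 12.29, a log2 difference of 2.71. Their median gave 1.74 and a 2-fold call. By identifier number, the brighter probe set lies among those of chromosome 3 genes. The other lies among those of chromosome 19 genes, and Pgam1 is on chromosome 19. Genes of this pathway have near-identical processed copies in the genome, and which copies each probe set reads was not tested. Gapdh, often used as a loading control, was 12.89 and 13.00 against 13.09 and 13.12 (0.16, SE 0.06, limma adjusted p = 0.083), and its other probe sets of a single symbol differed by 0.08 and -0.06. Probe sets shared with Gm12070 differed by 0.13 to 0.22. A dim one shared with Gapdh-ps15 differed by 1.38 (5.68 and 5.90 against 6.86 and 7.48). By number, the probe set used for Gapdh lies among those of chromosome 11 genes, while Gapdh is on chromosome 6. Eno3, the muscle enolase gene, ran against the others, at 10.12 and 9.78 in the day 6 cultures and 9.55 and 8.67 in the iPSC lines (-0.84, SE 0.30, limma adjusted p = 0.0605). It passed as lower by more than 2-fold without the 38 h line (-1.29, limma adjusted p = 0.00316) and, with all 4 arrays, after cyclic loess (-1.04, limma adjusted p = 0.0361). Without the 10 day line the difference was -0.40 (limma adjusted p = 0.197). Of 9 striated muscle markers 4 (Actc1, Ckm, Myh1, Myh3) lay below the floor on all arrays, Acta1 fell by 1.05, Des and Mylpf rose by 1.69 each (Mylpf 1.19-fold counted from the floor), and Myog (-0.55) and Tnnt3 (-0.31) did not pass. The mean of the 9 was 6.13 to 6.37 on the 4 arrays, and their part in the Eno3 values was not tested.

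All 4 transporter genes rose at least 2-fold by their brightest probe set. Slc16a3 encodes MCT4, a lactate exporter of glycolytic cells, and was near the floor at day 6 (6.69 and 6.63) and far above it in iPSC (9.89 and 10.03). Counted from the floor it rose 9.68-fold (3.30 as read, SE 0.16, limma adjusted p = 0.000137). A probe set shared by Csnk1d and Slc16a3 did not show this (10.10 and 10.20 against 9.92 and 9.90). Slc16a1 encodes MCT1, which carries lactate and pyruvate both ways, and was 9.88 and 10.43 against 11.41 and 11.16. Its 2.19-fold rise (1.13, SE 0.21, limma adjusted p = 0.00632) fell under 2-fold after cyclic loess (0.96) and without the Firefly array (0.86). Slc2a1, the widespread glucose transporter GLUT1, rose 2.73-fold from 11.42 and 11.67 to 12.98 and 13.01 (1.45, SE 0.10, limma adjusted p = 0.000333). Its other probe set, near or below the floor (6.25 and 5.90 against 6.66 and 6.40), differed by 0.45. The median of both gave 0.95, under 2-fold. Slc2a3, the high-affinity transporter GLUT3, rose 3.52-fold from 9.82 and 10.98 to 12.19 and 12.23 (1.81, SE 0.34, limma adjusted p = 0.00685), with the day 6 cultures far apart.

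At the branch after pyruvate, 2 of 3 listed kinases that shut off pyruvate dehydrogenase rose, and the gene of the enzyme itself did not pass the test. Pdk1, the kinase HIF induces, was 7.74 and 7.98 against 9.56 and 9.11, a 2.78-fold rise (1.47, SE 0.21, limma adjusted p = 0.00272). Another probe set of Pdk1, far below the floor on all 4 arrays, did not follow (3.79 and 3.60 against 3.85 and 3.66). The median over both was therefore 0.77. Pdk4, the kinase linked to fasting and fat use, was 7.54 and 7.03 against 8.41 and 8.76, a 2.47-fold rise (1.31, SE 0.23, limma adjusted p = 0.00574). Pdk3 overlapped between the groups, at 10.39 and 10.15 against 10.29 and 10.77 (0.26, SE 0.20, limma adjusted p = 0.315). Pdha1, the catalytic alpha subunit of pyruvate dehydrogenase, overlapped too, at 9.81 and 10.21 against 9.98 and 10.39 (0.18, SE 0.21, limma adjusted p = 0.511). Pfkfb3, which makes the activator of phosphofructokinase, was 7.22 on both day 6 arrays and 8.39 and 8.58 in iPSC, a 2.41-fold rise.

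Of the 11 HIF targets outside glycolysis that were found, 10 rose at least 2-fold and 1, Car9, lay below the floor, with differences of 1.30 to 3.37. Vegfa, the angiogenic growth factor, was 7.79 and 7.52 at day 6 and 10.68 and 11.36 in iPSC, a 10.3-fold rise (3.37, SE 0.26, limma adjusted p = 0.000419). Bnip3, a receptor that sends mitochondria to autophagy, was 7.83 and 7.54 against 10.65 and 10.73, an 8.05-fold rise (3.01, SE 0.18, limma adjusted p = 0.000203). Its relative Bnip3l is read only together with a pseudogene, and that probe set was 11.90 and 11.86 against 12.09 and 12.21. P4ha1 and P4ha2 encode collagen prolyl hydroxylase subunits; P4ha1 rose 3.39-fold from 9.14 and 8.79 to 10.56 and 10.90. P4ha2 lay below the floor in both day 6 cultures (6.52 and 6.20) and reached 8.46 and 8.67, at least 3.75-fold higher counted from the floor (limma adjusted p = 0.000585).

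Feedback and stress genes of the HIF response rose too. Egln1 and Egln3, the prolyl hydroxylases that mark HIF for decay, rose 3.30-fold (8.98 and 8.99 against 10.54 and 10.88) and 2.45-fold (10.77 and 10.45 against 12.04 and 11.77). Ero1a, the oxidase that forms disulphide bonds in the endoplasmic reticulum, rose 3.46-fold from 10.38 and 10.41 to 12.04 and 12.34, and its dimmer probe set differed by 0.73. Ndrg1, a differentiation and stress gene, had the largest SE of the HIF targets outside glycolysis, at 9.43 and 8.72 against 10.57 and 11.29 (1.86, SE 0.32, limma adjusted p = 0.00493). Its dimmer probe set differed by 1.01. Ddit4, an inhibitor of mTORC1, rose 2.49-fold with little spread, from 9.67 and 9.59 to 10.93 and 10.95. Higd1a, a mitochondrial protein gene, rose from 6.66 and 6.41 to 7.78 and 7.94, a 2.29-fold rise when the Sumo2 array, where it was dimmer than the floor, is set to it. The probe set that Ankrd37 shares with Lrp2bp lay below the floor on all 4 arrays, at 5.24 to 6.49.

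**Figure D3:**
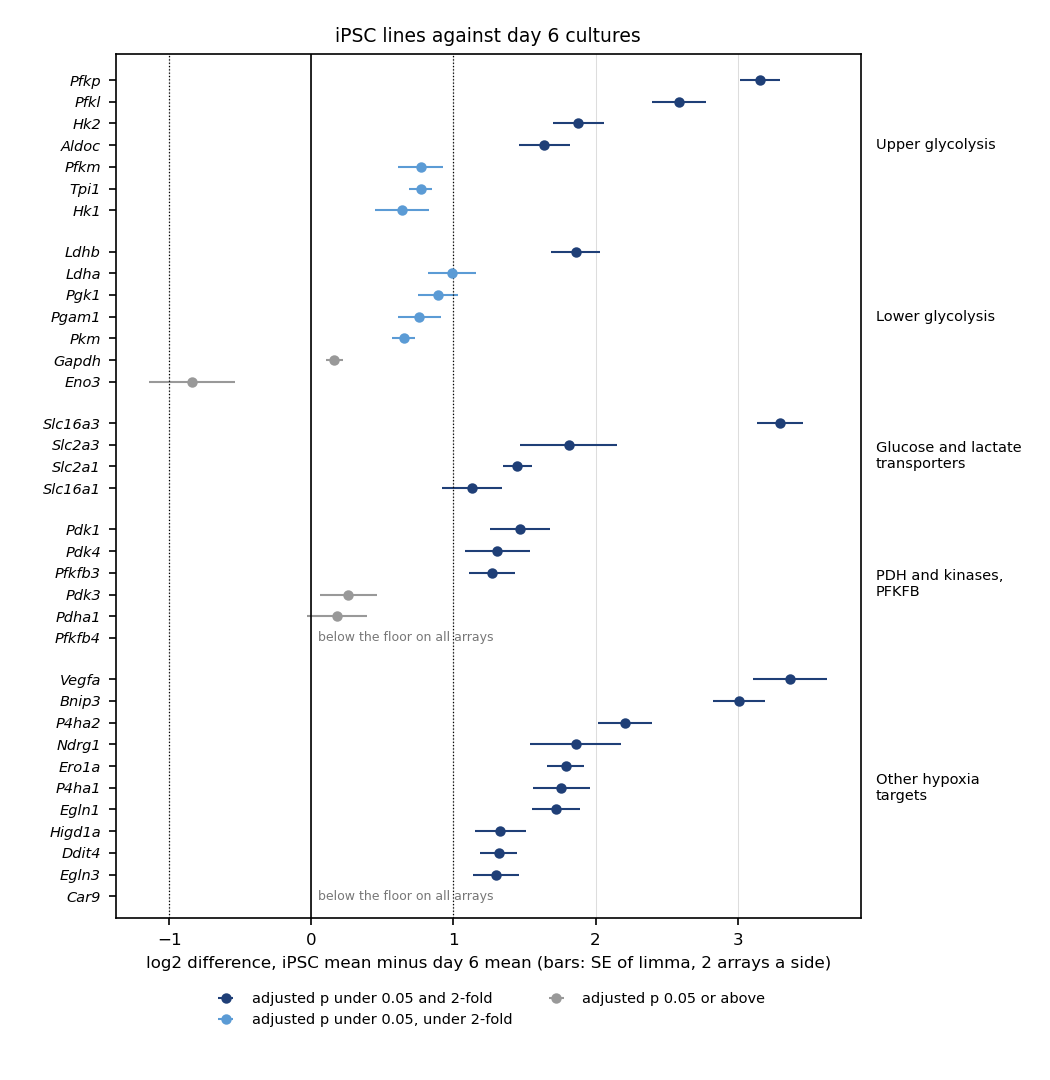
Log2 difference between the means of both iPSC and both day 6 arrays (x axis) for the 33 measured genes (y axis), with bars for the SE of limma and dotted lines at 2-fold. Dark points (22 genes) passed adjusted p and 2-fold, light points (7 genes) adjusted p alone, and grey points (4 genes) neither. Pfkfb4 and Car9 have no point because they lay below the floor.

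By the probe sets used, members of the same enzyme or carrier family changed unequally. A scaling factor shared by a whole array cancels in their ratio, but differences in how probe sets respond do not. Probe sets of the same gene also differed, by 0.76 and 2.71 for Pgam1 and by 1.79 and 0.73 for Ero1a. The other probe set of Pdk1 lay below the floor on all 4 arrays. Whether the transcripts themselves shifted in ratio was therefore not tested. Pfkp rose 5.26-fold more than Pfkm (2.40 on the log2 scale, 2.21 to 2.58 over the 4 pairs of an iPSC and a day 6 array) and Pfkl 3.54-fold more (1.82, from 1.49 to 2.16). Slc16a3 rose 4.48-fold more than Slc16a1 (2.16, from 1.66 to 2.67). It was near the floor at day 6 (6.69 and 6.63), and counted from the floor it rose by 3.27, against 3.30 as read. The ratio of Hk2 to Hk1 changed by 1.23 (0.73 to 1.74), and that of Ldhb to Ldha by 0.87 (0.78 to 0.97). For P4ha2, below the floor at day 6, no ratio to P4ha1 is given: counted from the floor it rose by at least 1.91, against 1.76 for P4ha1. Pdk1 and Pdk4 both gained on Pdk3, by 1.22 and 1.05. For Slc2a3 over Slc2a1 (0.37, from -0.08 to 0.82), Pdk1 over Pdk4 (0.17, from -0.61 to 0.95) and Egln1 over Egln3 (0.43, from -0.05 to 0.90) the 4 pairs did not share a sign. The 4 pairs share arrays, so their ranges describe these samples and carry no test.

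**Figure D4:**
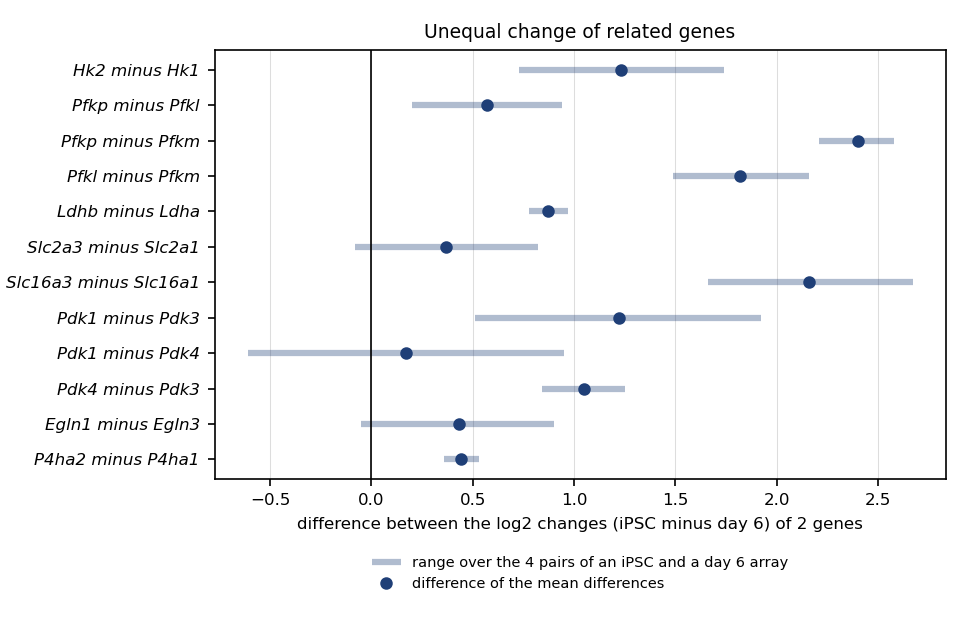
Difference between the log2 changes (iPSC minus day 6) of 2 related genes (x axis), as the difference of means (points) with the range over the 4 pairs of an iPSC and a day 6 array (bars). The bar of P4ha2 and P4ha1 rests on P4ha2 values below the floor at day 6. Bars that cross 0 belong to Slc2a3 and Slc2a1, Pdk1 and Pdk4, and Egln1 and Egln3.

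Further genes of these pathways were taken from lists of textbook members, with earlier results of these data known. At the same rule of adjusted p alone, 29.0% of all measured genes rose and 17.8% fell. Of 13 HIF regulators measured, 4 rose, a share near that of all genes, 1 fell and 8 did not pass, with a median of 0.20. Hif1a was 9.88, 9.92, 9.93 and 10.01 on the Firefly, Sumo2, 38 h and 10 day arrays (0.07, SE 0.14, limma adjusted p = 0.706). Epas1, which encodes the alternative alpha subunit, fell 2.34-fold, from 10.47 and 10.66 to 9.80 and 8.88 (limma adjusted p = 0.0171). Their partner Arnt rose by 0.50 and Vhl by 0.77, while Cul2, the scaffold of the Vhl ligase, rose 2.11-fold. Of 27 other HIF targets 17 rose and 0 fell, beside 29.0% and 17.8% of all genes, with a median of 0.69. At 2-fold 10 rose, beside 14.3% of all genes, and 1 of the 10, Adm, only 1.41-fold counted from the floor. The mitochondrial adenylate kinase gene Ak4 (3.03), the transferrin receptor gene Tfrc (2.83), Narf (2.06) and the stanniocalcin gene Stc1 (at least 2.85-fold counted from the floor) led them. Targets such as Angptl4 (0.35, limma adjusted p = 0.134), Insig2 (0.43, 0.0603) and Hilpda (0.26, 0.246) did not pass.

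Neighbouring pathways were set beside all genes, of which 29.0% rose and 17.8% fell. Of 18 other glycolysis and pyruvate genes measured, 4 rose, 0 of them by 2-fold, and Pcx, which encodes the pyruvate carboxylase that refills the citrate cycle, fell 2.22-fold (9.26 and 9.60 against 8.07 and 8.49, limma adjusted p = 0.00681). Eno2 (-0.11), the pyruvate dehydrogenase subunit gene Dlat (0.07) and its phosphatase gene Pdp1 (0.11) did not pass. Pdk2 was 9.16 and 8.61 against 8.44 and 8.09, and did not pass either (-0.62, limma adjusted p = 0.073). In the pentose phosphate pathway 1 gene rose (Taldo1, 0.98) and 2 fell (Rpia, -0.76, and Pgls, -0.52) of 6. Of 11 citrate cycle genes 4 rose, Idh3g, Suclg2, Fh1 and Mdh2, by 0.40 to 0.61, and citrate synthase (Cs) differed by 0.03. The median was 0.16 for the other glycolysis and pyruvate genes, 0.01 for the pentose phosphate genes and 0.30 for the citrate cycle genes, beside 0.15 for all genes.

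The next comparison set the culture labelled Sumo2 knockdown against the Firefly control at day 6, 1 array against 1, so there is no test, and both arrays also enter the comparison above. Over 32 listed genes measured here, 16 were higher and 16 lower, against 53.7% of all genes higher, with a median of -0.01. Slc2a3 alone differed by 2-fold, at 9.82 and 10.98 (1.15, or 2.23-fold higher), against 0.945% of all genes that were higher by 2-fold and 0.230% lower. Of 4 transporters 3 were higher, Slc16a1 by 0.55 and Slc2a1 by 0.25, and Slc16a3 was not (-0.06). The median over both Slc2a1 probe sets, 1 of them below the floor at day 6, was -0.05. Upper glycolysis genes were higher in 3 of 7 cases, among them Pfkl (0.47) and Hk2 (0.39), and lower glycolysis genes in 5 of 7, with Eno3 lower (-0.34). Pgam1 was higher by its brighter probe set (0.31) and lower by the other (-0.25). HIF targets outside glycolysis leaned the other way, with 7 of 9 lower and a median of -0.27, among them Ndrg1 (-0.71), P4ha1 (-0.35), Egln3 (-0.33) and Bnip3 (-0.29). Of the 7, Higd1a (-0.25) was below the floor on the Sumo2 array and differed by 0.01 counted from the floor. Pdk4 was also lower (-0.51). In the same culture pluripotency markers were higher in 5 of 5 measured cases, 4 of them by 2-fold, with a median difference of 2.68. Fibroblast markers were lower in 8 of 8 cases (median -0.52), and the hybridisation controls had a median difference of -0.71. The part of any of these in the differences was not tested.

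Between the iPSC lines, again 1 array against 1 with no test, 22 of 33 genes were higher in the 10 day line, against 47.4% of all genes, with a median of 0.08, and 0 differed by 2-fold, against 2.19% higher and 1.03% lower. HIF targets outside glycolysis were higher in 9 of 10 cases (median 0.25), led by Ndrg1 (0.72) and Vegfa (0.68), with Egln3 lower (-0.27). Upper glycolysis genes were lower in 5 of 7 cases (median -0.06), and Eno3 had the widest difference of all (-0.88). The 3 X-linked genes of the list were each higher in the 10 day line, Pdk3 by 0.48 and Pgk1 and Pdha1 by 0.42 each. They shared this with the chromosome, since 393 measured X-linked genes had a median difference of 0.57 (quartiles 0.30 and 0.90; 90.1% higher) and 11296 autosomal genes -0.03. Ndrg1 and Vegfa are autosomal and lay outside the autosomal quartiles of -0.20 and 0.15.

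**Figure D5:**
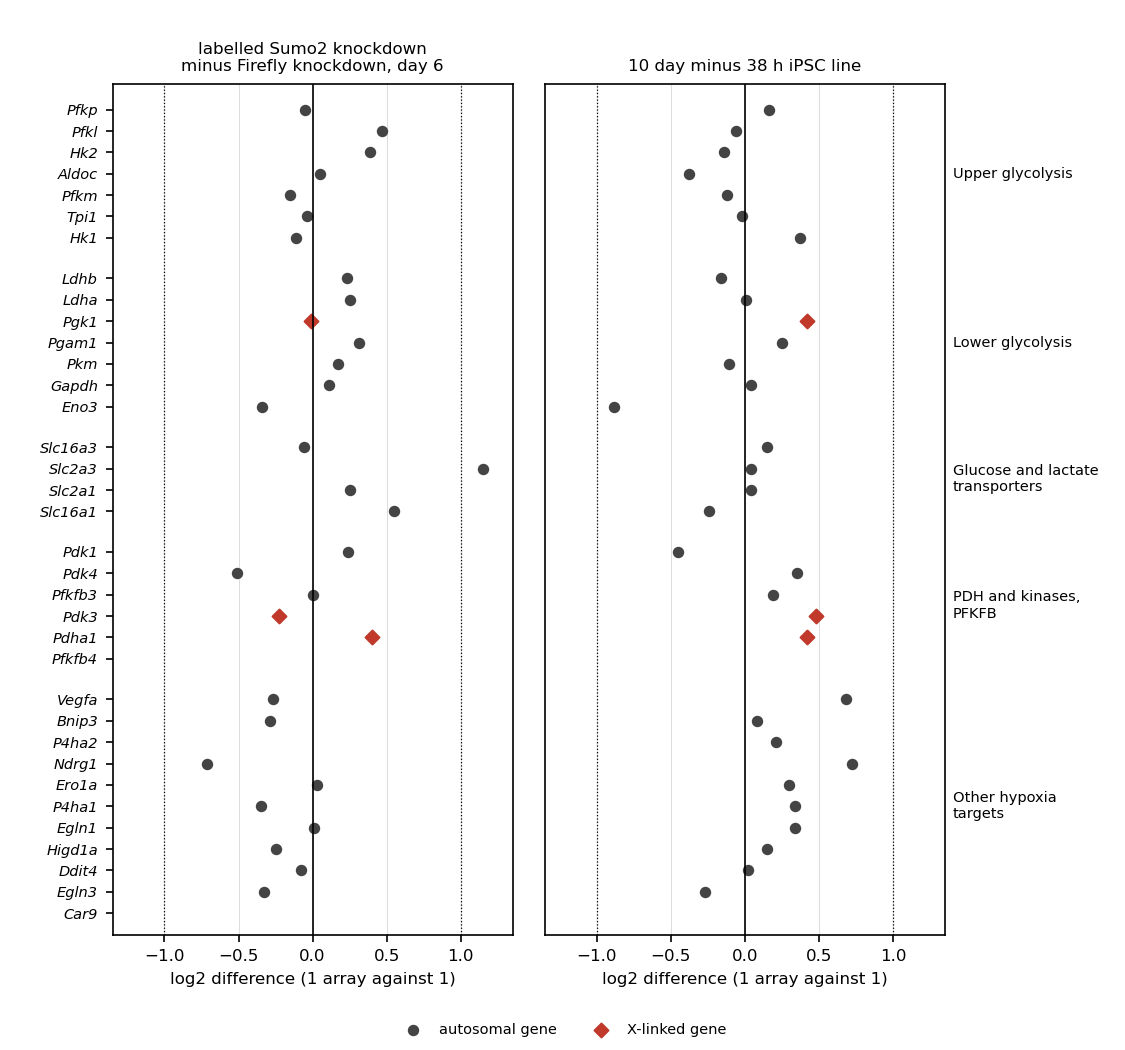
Log2 differences of the listed genes between both day 6 cultures (left) and between both iPSC lines (right), 1 array against 1, with dotted lines at 2-fold and X-linked genes as red diamonds. Slc2a3 lies past 2-fold on the left, no gene does on the right, and the 3 X-linked genes lie between 0.42 and 0.48 on the right.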

How the data were processed

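Total RNA of 4 samples was measured on 1 array each. The deposited values are log2 expression per probe set, which the authors made with RMA; the submitters' processing notes also name Affymetrix Expression Console; versions and settings are not given in the sources used here. Base 2 was taken from the range of 2.98 to 13.7. RMA makes arrays nearly equal in distribution, which hides any change in the amount of RNA per cell.

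Of 41345 probe sets, 23521 carry 1 symbol, 1814 several and 16010 none listed. Identifiers of 23328 were matched to a GRCm38.p6 table, which changed 0 symbols. A gene was measured when at or above the median of single-symbol probe sets on at least 1 array compared. The iPSC comparison was fitted in limma 3.58.1 under R 4.3.3 (linear model with eBayes and an intensity trend, 2 residual degrees of freedom, Benjamini-Hochberg over all 12735 measured genes); folds are differences as powers of 2. The fit was tested on simulated data. Arrays give no counting depth, and their number limits the precision. All listed genes are named; from each further list up to 4 of those called with the largest differences, small counts, and examples chosen after their values were seen. The members, lists and settings were chosen with earlier results of these data known. Alternatives changed scaling, floor, probe set choice, size rule, trend and arrays.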

Additional observations from a re-analysis of the deposited data

How the results depend on the processing

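The iPSC comparison kept 21 to 23 genes called higher under every alternative that keeps the 2-fold rule, leave-one-out included, and 29 at 1.5-fold or with no size rule; the median lay between 1.28 and 1.43. The count called lower, 0 as reported, was 1 (Eno3) after cyclic loess and 0 to 1 when single arrays were left out, with 1 residual degree of freedom and the lone array assumed to vary like the others. Without a size rule, 27 to 29 genes rose; Hk1 was lost in 6 of 10 alternatives and Pfkm in 1, without the Sumo2 array. Pdha1, which did not pass, changed sign to -0.0049 after cyclic loess and lay between -0.03 and 0.39 when arrays were left out. The median over probe sets put Slc2a1 at 0.95 and Pdk1 at 0.77, under 2-fold, because probe sets near or below the floor entered it. Cyclic loess moved the median of all genes from 0.15 to 0.03 and the share of higher among called genes from 61.1% to 51.7%, while the median of the listed genes moved from 1.33 to 1.28. At 1.5-fold, 1 gene was lower in the culture labelled Sumo2 knockdown, and 2 were higher and 1 lower in the 10 day line. Causes were not tested except where named. No paired analysis was possible because the labels give no replicate numbers and each group has 1 array.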

Other observations

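Slc2a3, the only listed gene that differed 2-fold between the day 6 cultures, lies next to Nanog in the mouse annotation (GRCm38.p6), with no other annotated gene between them. Nanog, a core pluripotency factor, was 7.54 with Firefly knockdown and 9.87 in the culture labelled Sumo2 knockdown, and 12.05 and 12.50 in the 38 h and 10 day lines. Gdf3, a growth factor gene of pluripotent cells that lies 7 genes from Slc2a3 on the same side as Nanog, was 6.90, 7.61, 9.92 and 10.10 on the same arrays. On the other side, Foxj2 was 10.31 and 10.14 at day 6 and fell by 1.01 in iPSC (limma adjusted p = 0.00352), and Necap1 was 9.27 and 9.55 and rose by 0.97 (limma adjusted p = 0.0097). Apobec1, 8 genes away beyond Gdf3, fell by 1.39 (limma adjusted p = 0.00488). Of the nearer genes not described so far, C3ar1 (4 away, beyond Foxj2) was below the floor on all 4 arrays, and Dppa3 (6 away, between Nanog and Gdf3) was below it at day 6 (5.94 and 5.85) and 6.72 and 7.49 in iPSC. Mfap5 (11 away) was 7.85 and 7.58 at day 6 and did not pass in iPSC (0.46, limma adjusted p = 0.0714). Rimklb (13 away, beyond Mfap5) was below the floor at day 6 (5.60 and 5.87) and 10.53 and 9.64 in iPSC. It rose by 4.35 as read (limma adjusted p = 0.000318). The Clec4 genes beyond Necap1 were below the floor on all 4 arrays. These genes were looked up after the values of Slc2a3 had been seen.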
